A study of Homo sapiens with 60 samples.

Results

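The high dose of the ethanol extract of Coptidis Rhizoma was set against the high dose of the ethanol extract of Bupleuri Radix in cells of the HT29 line, to describe what separates these strong single-herb responses. The comparison rests on 5 of 60 libraries, chosen by the extract and dose in their labels: 2 with Coptidis Rhizoma at 320 µg/mL and 3 with Bupleuri Radix at 310 µg/mL. HT29 is an established line of human colorectal adenocarcinoma, and all groups used here were HT29 cells collected after 24 h. The same extracts at medium dose (64 µg/mL for Coptidis, 62 µg/mL for Bupleuri) and at low dose (12.8 and 12.4 µg/mL) had 2 and 3 libraries each, and the vehicle, 0.1% DMSO per the sample labels and 2% per the series' design text, had 3. Per the series' design text, an extract whose IC20 lay below 500 µg/mL was given at that IC20 and at dilutions of it, so both high doses, which lie below that value, are taken as IC20 concentrations. What the IC20 inhibits is not stated in the labels, and each group is set against the other extract at its own concentration.

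Coptidis Rhizoma is the rhizome of goldthread and is known for berberine and related isoquinoline alkaloids, and Bupleuri Radix is the root of Bupleurum, known for triterpenoid saikosaponins. Several gene programs respond to foreign compounds in gut epithelium. The aryl hydrocarbon receptor, a ligand-activated transcription factor, switches on cytochrome P450 genes. ATF4 is translated when the kinases of the integrated stress response phosphorylate eIF2 alpha, and it raises genes of amino acid supply, whereas NRF2 is stabilised by electrophiles and raises antioxidant genes. SREBP2 is activated when sterol falls in the membrane of the endoplasmic reticulum, and it raises cholesterol synthesis.

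The libraries held 23.5 to 25.9 M counts with Coptidis high and 22.8 to 26.7 M with Bupleuri high, within the 18.1 to 36.7 M of all 60. A count of 3 in a library, taken as the floor of detection, stood for 0.112 to 0.125 CPM (a gene's counts scaled to library size) with Coptidis high and 0.115 to 0.133 CPM with Bupleuri high. The epithelial identity of HT29 was visible in its markers, whose 12 genes summed to 9100 to 9120 CPM with Coptidis high and 12400 to 13000 CPM with Bupleuri high. Most of this came from KRT8 and KRT18, at 4060 to 4180 and 2410 to 2540 CPM with Coptidis high. CDX1 reached at most 0.333 CPM there and 0.843 CPM with Bupleuri high. Members split: EPCAM (587 to 607 against 494 to 524 CPM), LGALS4 and CDX2 were higher with Coptidis high, and KRT8, KRT18, KRT19 and CEACAM5 lower. Among markers of other cells, COL1A2 of fibroblasts, CDH5 and KDR of endothelium and CD3E of T cells were at 0 in all high-dose libraries. PTPRC of leukocytes reached at most 0.0833 CPM. Others lay above the floor: COL1A1, LUM, CD14 and CD68 reached 1.71, 1.42, 3.21 and 6.58 CPM with Coptidis high. With Bupleuri high they reached 1.38, 1.09, 2.62 and 7.6 CPM. The fibroblast marker sum was 2.74 to 3 CPM with Coptidis high and 2.26 to 2.34 CPM with Bupleuri high. The endothelial marker sum, nearly all from PECAM1, was 0.187 to 0.292 CPM with Coptidis high and 1.69 to 1.96 CPM with Bupleuri high, and the leukocyte sum, nearly all from LYZ, was 1460 to 1500 CPM and 1760 to 1960 CPM. The part of these genes in other results was not tested. Coptidis and Bupleuri libraries carry different set numbers in the labels, 11 and 13, and the vehicle libraries carry D1. At a single dose the extract and the set therefore cannot be told apart, and levels set beside vehicle hold any set difference too. The contrast of the extracts at low dose is given beside the main results. The difference between the dose changes of both extracts, high minus low, cancels any set difference that is constant on the log scale. Replicates are not described as separate cultures, so p-values rest only on the spread between libraries of the same group. That spread was estimated over all 60 libraries in 25 groups, those of other herbs among them.

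The ribosomal RNAs of the mitochondrial genome separated the extracts most at low dose. These 2 RNAs took 1.602% ± 0.053 of counts with Coptidis high and 1.231% ± 0.0787 with Bupleuri high, but 10.15% ± 0.508 with Coptidis low and 1.118% ± 0.0204 with Bupleuri low (SD, n = 2 and 3). At medium dose the shares were 6.355% ± 0.127 and 1.109% ± 0.103, and in vehicle 1.111% ± 0.0406. Within the Coptidis libraries the share was lower at each higher dose, and the Bupleuri libraries stayed close to vehicle. The part of these transcripts in other results was not tested, and the counts obtained without mitochondrial genes are given under the dependence on processing.

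**Figure D1:**
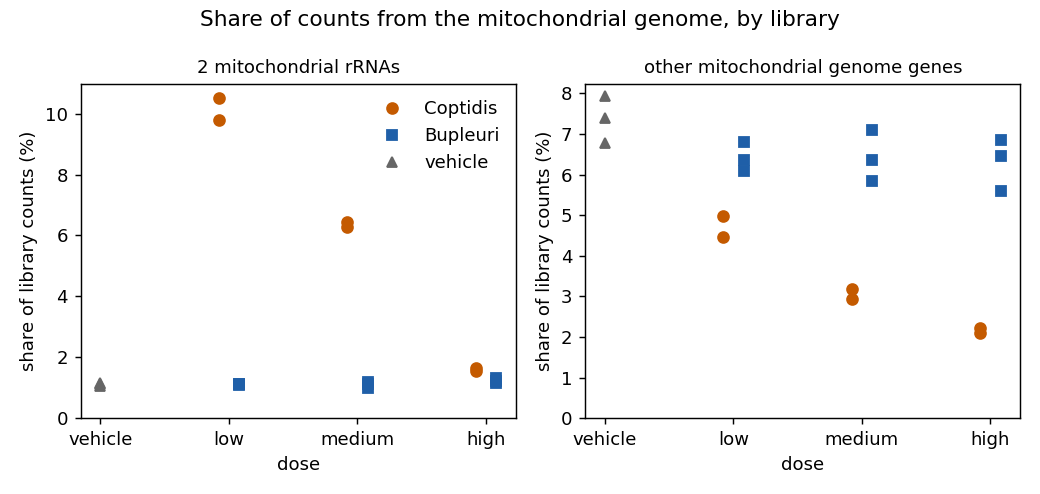
Share of library counts (%, y axis) from the 2 mitochondrial ribosomal RNAs (left) and from all other genes of the mitochondrial genome (right) by dose (x axis), with a point for each library. Coptidis libraries lie near 10% rRNA at low dose and at 1.602% on average at high dose, whereas Bupleuri and vehicle libraries lie near 1.1% to 1.2%.

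Coptidis high and Bupleuri high differed in the larger part of the transcriptome. Of 16022 tested genes, 9529 (59.5%) passed an adjusted p of 0.05, 4821 higher with Coptidis (30.1%) and 4708 lower (29.4%), and 2578 of these (16.1% of all) differed at least 2-fold. At medium dose 1326 genes passed (8.28%), 785 higher (4.9%) and 541 lower (3.38%), and at low dose 34 (0.212%), 26 higher (0.162%) and 8 lower (0.0499%). The lower-dose counts depend on 1 library of another herb that enters the shared fit, replicate 3 of Zizyphi at medium dose, whose scaling factor was 0.5665: without it 10633 genes passed at high dose, 2841 at medium dose and 156 at low dose. The median absolute log2 difference was 0.43 at high dose, 0.13 at medium dose and 0.09 at low dose. A gene was taken as different beyond the low dose when it passed at high dose, passed in the difference of dose changes with the same sign, and had a low-dose difference under 0.5 times the high-dose one. The difference of dose changes passed for 7298 genes (45.5%), 3616 higher (22.6%) and 3682 lower (23%). With total counts only, 70.1% of these were higher in place of 49.5%. By the whole rule 6922 genes (43.2%) qualified, 3433 higher (21.4%) and 3489 lower (21.8%) with Coptidis. The scaling between libraries takes most genes as equal although most differed here, so each difference is relative to the rest of the library's RNA.

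**Figure D2:**
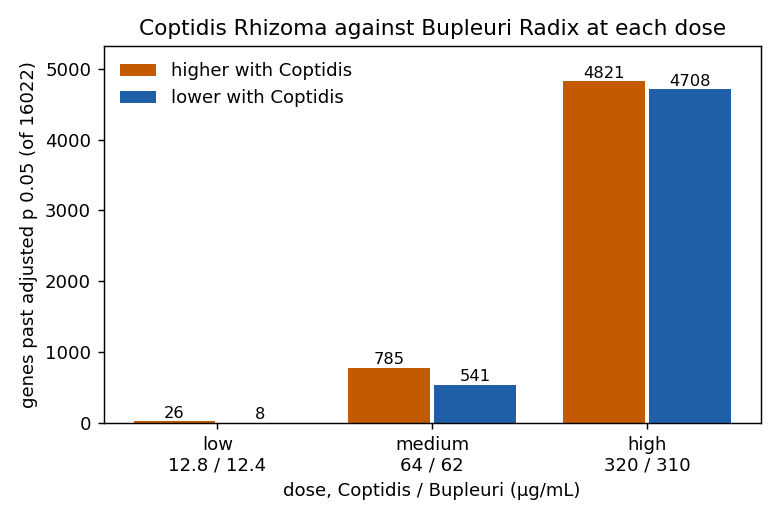
Number of genes (y axis) past an adjusted p of 0.05 in Coptidis against Bupleuri at each dose (x axis, µg/mL), higher with Coptidis in orange and lower in blue. The bars reach 4821 and 4708 genes at high dose, against 26 and 8 at low dose.

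The extracts also differed in how far they moved from their own low dose, comparisons that share no library and each lie within a set. With Coptidis 9001 genes changed from low to high dose (56.2%), 4449 up (27.8%) and 4552 down (28.4%), and with Bupleuri 2071 (12.9%), 1015 up (6.34%) and 1056 down (6.59%). Without that Zizyphi library the counts were 10207 and 3631. With libraries scaled by total counts only, the share of changes that were rises was 62.2% with Coptidis, against 49.4% in the main scaling, and 27.8% with Bupleuri, against 49%. Genes that rose with both numbered 553, 12.4% of the rises with Coptidis and 54.5% of those with Bupleuri. Genes that fell with both numbered 594, 13% of the falls with Coptidis and 56.2% of those with Bupleuri. A further 222 rose with Coptidis and fell with Bupleuri, and 233 fell with Coptidis and rose with Bupleuri. Changes of at least 2-fold that passed were 2482 with Coptidis (15.5%) and 200 with Bupleuri (1.25%).

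**Figure D3:**
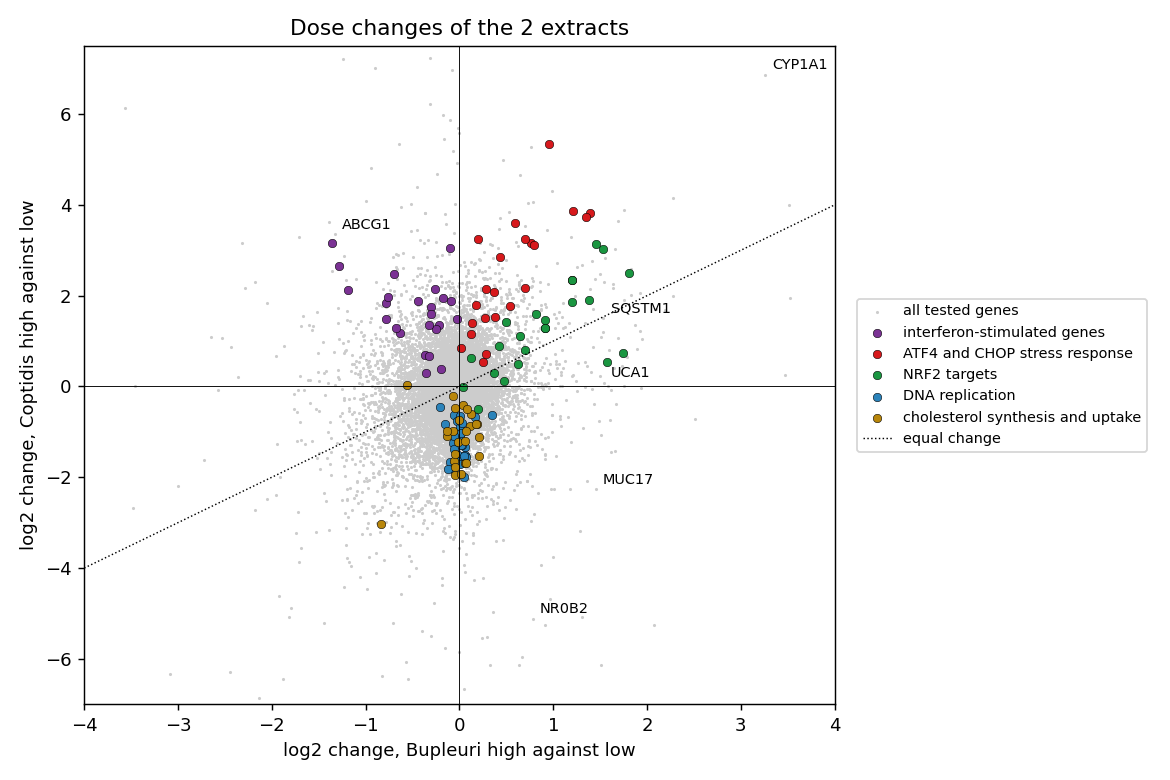
Log2 change from low to high dose with Bupleuri (x axis) and with Coptidis (y axis) for each tested gene, with 5 gene lists in colour and the dotted line marking equal change. Interferon-stimulated genes lie at the upper left and DNA replication and cholesterol genes below 0 on the y axis near 0 on the x axis, and 42 genes of extreme values lie outside the axes.

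Aryl hydrocarbon receptor targets gave the largest positive difference among the genes named by rule. CYP1A1 (ENSG00000140465, chr15:74719542-74725610, minus strand), a cytochrome P450 that oxidises polycyclic aromatics, had 264 and 252 CPM with Coptidis high and 2.05, 2.42 and 2.34 CPM with Bupleuri high. The groups lay far apart, with a log2 difference ± SE of 6.82 ± 0.15 (adjusted p = 3.63e-32), or 113-fold. At low dose the gene stood at 2.27 and 2.15 CPM with Coptidis and 0.243, 0.376 and 0.1102 CPM with Bupleuri, against 0.489, 0.489 and 0.400 CPM in vehicle, and this difference of 3.22 ± 0.34 (adjusted p = 3.23e-08) also passed. From low to high dose CYP1A1 rose with both extracts, by 6.87 ± 0.18 with Coptidis and 3.26 ± 0.32 with Bupleuri, and these rises differed by 3.60 ± 0.56 (adjusted p = 9.09e-07). The low-dose Bupleuri values lie close to the floor of 3 counts, which limits the precision of that change. CYP1B1, a related P450, had 519 and 509 CPM with Coptidis high and 72.9, 71.5 and 74.9 CPM with Bupleuri high, a difference of 2.81 ± 0.06 (adjusted p = 3.63e-32), against 0.76 ± 0.06 at low dose.

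Of 8 tested genes of the receptor's list, 6 were higher and 2 lower with Coptidis high, where 30.1% and 29.4% of all tested genes were. The list's median log2 difference was 0.95 beside 0.0019 over all tested genes. TIPARP, an ADP-ribosyltransferase that limits receptor activity, had 302 and 305 CPM with Coptidis high and 114, 109 and 111 CPM with Bupleuri high, and AHRR, the receptor's repressor, had 7.81 and 6.67 CPM and 4.54, 4.64 and 4.26 CPM in the same order. The exceptions were ALDH3A1, an aldehyde dehydrogenase, at -0.27 ± 0.07, and UGT1A6, a glucuronosyltransferase, at -0.26 ± 0.09. With total counts only neither passed (6 higher and 0 lower), and without Coptidis high replicate 2 the list had 6 higher and 1 lower. ALDH3A1 rose by 0.32 with Coptidis and by 1.08 with Bupleuri from low to high dose. In this list 7 genes rose with each extract (4 with Bupleuri with total counts only). In the difference of dose changes 6 of 8, CYP1A1, CYP1B1 and TIPARP among them, moved further with Coptidis, and ALDH3A1 and UGT1A6 less far (1 less far with total counts only).

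The promoter of CYP1A1 is shown because it holds the core of the receptor's response element, GCGTG, set in capitals. The window runs from 250 bases before to 50 after the start in RefSeq on GRCh38.p14, chr15:74725479-74725778, minus strand, written 5′ to 3′.
CYP1A1 promoter: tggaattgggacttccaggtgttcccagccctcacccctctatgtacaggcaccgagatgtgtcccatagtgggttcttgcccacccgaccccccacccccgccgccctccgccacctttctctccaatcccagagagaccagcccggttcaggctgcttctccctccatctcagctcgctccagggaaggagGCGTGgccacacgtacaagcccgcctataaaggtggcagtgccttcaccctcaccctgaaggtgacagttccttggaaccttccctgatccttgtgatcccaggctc
Searched on both strands, GCGTG was found in a window of 6 of the 6 tested list members that the RefSeq table holds, and of 40.6% of all 27305 genes in it.

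Genes of amino acid supply and of the integrated stress response were higher with Coptidis high in every tested member of the ATF4 and CHOP list. All 23 passed, with a median log2 difference of 2.18 at high dose and 0.27 at low dose, where 7 passed. CHAC1 (ENSG00000128965, chr15:40952962-40956519, plus strand), which breaks down glutathione, had 81.8 and 86.6 CPM with Coptidis high and 8.10, 8.39 and 7.86 CPM with Bupleuri high. Its Coptidis libraries stood far above the Bupleuri libraries (3.37 ± 0.14, 10.4-fold, adjusted p = 2.75e-23), and at low dose the levels were 6.32 and 6.33 against 3.53, 2.82 and 3.16 CPM. The glycine transporter SLC6A9 had 71.6 and 69.1 CPM with Coptidis high and 2.00, 1.25 and 1.23 CPM with Bupleuri high, a difference of 5.57 ± 0.16 (adjusted p = 2.49e-28). ASNS, asparagine synthetase, differed by 3.19 ± 0.06, PSAT1 of serine synthesis by 2.35 ± 0.07, and the transcription factors DDIT3 and ATF3 by 2.89 ± 0.11 and 2.73 ± 0.13. The mRNA of ATF4 itself, a factor controlled chiefly in translation, differed by 0.60 ± 0.06.

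Bupleuri high raised part of the same list over its own low dose. With Bupleuri 15 of 23 genes rose over low dose (6.34% of all tested genes did), with a list median of 0.43 on the log2 scale, and with Coptidis 23 of 23 (27.8%), with a median of 2.16. CHAC1 rose by 1.35 ± 0.16 with Bupleuri and 3.73 ± 0.17 with Coptidis, ATF3 by 1.39 ± 0.14 and 3.82 ± 0.16, and DDIT3 by 1.21 ± 0.11 and 3.87 ± 0.13, in the order Bupleuri, Coptidis. The leucine-sensing stress gene SESN2, by contrast, had 146 and 139 CPM with Coptidis high and 15.8, 14.2 and 14.1 CPM with Bupleuri high and did not pass from low to high dose with Bupleuri (0.20 ± 0.10, adjusted p = 0.212). The difference of dose changes passed for 22 of the 23 genes.

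Among 20 cytosolic aminoacyl-tRNA synthetases, which charge tRNAs with amino acids, 12 were higher and 5 lower with Coptidis high. Their median log2 difference was 0.91, and 30.1% of all tested genes were higher and 29.4% lower. The lower members were 3 without Coptidis high replicate 2, with total counts only or with no filter on low counts. WARS1, for tryptophan, led with 610.1 and 608 CPM with Coptidis high and 118, 112 and 113 CPM with Bupleuri high, a difference of 2.41 ± 0.07 (adjusted p = 4.67e-28). SARS1, for serine, and AARS1, for alanine, differed by 1.95 ± 0.05 and 1.78 ± 0.04. VARS1, for valine, went the other way, at 90.7 and 95.1 CPM with Coptidis high and 263, 268 and 261 CPM with Bupleuri high (-1.51 ± 0.10).

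Other genes of the largest positive differences are not on these lists. NIBAN1, a stress-induced gene, had 151 and 148 CPM with Coptidis high and 5.83, 7.22 and 4.75 CPM with Bupleuri high, 25.2-fold. ADM2, a peptide hormone of the calcitonin family, differed by 3.65 ± 0.14, the receptor subunit IL20RB by 3.68 ± 0.14, the inositol kinase ITPKA by 4.01 ± 0.22 and the collagen mRNA-binding protein LARP6 by 3.64 ± 0.15. At low dose SLC6A9 and ADM2 passed too, at 1.18 ± 0.24 and 1.13 ± 0.17, whereas NIBAN1, ITPKA, IL20RB and LARP6 did not.

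The CHAC1 promoter carries a C/EBP-ATF response element, the composite site that ATF4 binds, and is shown for that match. The search string was TGATGNAA on both strands, and the capitals mark its match on the opposite strand, in the window chr15:40953221-40953520, plus strand.
CHAC1 promoter: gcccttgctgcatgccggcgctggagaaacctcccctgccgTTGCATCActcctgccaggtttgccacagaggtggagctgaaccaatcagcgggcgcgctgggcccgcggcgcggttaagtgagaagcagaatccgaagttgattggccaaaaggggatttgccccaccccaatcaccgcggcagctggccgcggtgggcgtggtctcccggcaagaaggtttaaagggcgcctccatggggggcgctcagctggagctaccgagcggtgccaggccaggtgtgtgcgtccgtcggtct
A match was found for 6 of the 19 tested list members that have a window (ASNS, ATF3, CEBPG, CHAC1, SLC1A5 and SLC3A2), beside 4.46% of all genes.

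NRF2 targets rose with both extracts, and most stood higher with Coptidis. Of 22 tested genes 16 were higher and 3 lower with Coptidis high, with a median difference of 0.61. Over all tested genes these shares were 30.1% and 29.4%. From low to high dose 19 rose and 1 fell with Coptidis, where 27.8% and 28.4% of all tested genes did. With Bupleuri 21 rose, where 6.34% of all tested genes did. HMOX1, which degrades haem, had 79.9 and 85.1 CPM with Coptidis high and 28.9, 24.1 and 27.9 CPM with Bupleuri high (1.61 ± 0.11, adjusted p = 4.73e-16), beside 9.12, 8.66 and 8.15 CPM in vehicle. The groups did not overlap, and both extracts had moved HMOX1 from their low dose, Coptidis by 3.02 ± 0.14 and Bupleuri by 1.53 ± 0.11. AKR1C1, a steroid-reducing aldo-keto reductase, had 139.8 and 146 CPM with Coptidis high and 37.2, 33.2 and 36.3 CPM with Bupleuri high (2.01 ± 0.10). AKR1C2 differed by 1.44 ± 0.10 at high and 0.76 ± 0.12 at low dose. The sequences of AKR1C1 and AKR1C2 are close, so that reads may be shared between them.

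In 3 NRF2 targets the order was reversed. AKR1B10, a reductase of aldehydes and retinal, stood at 169 and 174 CPM with Coptidis high and 285, 267 and 277 CPM with Bupleuri high (-0.69 ± 0.07), after rises of 0.54 with Coptidis and 1.57 with Bupleuri. The efflux pump ABCC2 differed by -0.79 ± 0.26 and TALDO1 of the pentose phosphate pathway by -0.61 ± 0.07. Of 11 tested drug efflux and conjugation genes 2 were higher and 7 lower with Coptidis high, where 30.1% and 29.4% of all tested genes were. From low to high dose 7 had risen with Bupleuri, where 6.34% of all tested genes did. The 2 higher calls rest on 1 library, with 0 higher and 7 lower without Coptidis high replicate 3, and 0 and 6 with no filter on low counts. ABCG2, a drug efflux transporter, had 47.7 and 46.0 CPM with Coptidis high and 112, 111 and 116 CPM with Bupleuri high (-1.27 ± 0.05, adjusted p = 3.03e-23). UGT1A1 and UGT1A10, glucuronosyltransferases that share exons and whose reads cannot be fully told apart, differed by -0.78 ± 0.08 and -0.63 ± 0.04.

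The antioxidant response element core TGACNNNGC was in a window of 4 of the 16 tested NRF2 targets in the table (GCLM, ME1, PGD and TXNRD1), beside 16.1% of all genes.

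Interferon-stimulated genes were higher with Coptidis high and rose with its dose, and part of them fell with the dose of Bupleuri. All 24 tested members were higher with Coptidis high, with a median log2 difference of 2.19 against 0.14 at low dose, where none of the 24 passed in edgeR. From low to high dose 24 rose with Coptidis (median 1.68) and with Bupleuri 14 fell and 10 did not pass (median -0.34, with 6.59% of all tested genes falling). MX1 (ENSG00000157601, chr21:41420304-41459214, plus strand), an antiviral GTPase, had 65.0 and 57.0 CPM with Coptidis high and 6.36, 5.29 and 5.33 CPM with Bupleuri high, against 9.34, 8.45 and 10.2 CPM in vehicle. Coptidis libraries thus lay above and Bupleuri libraries below those of vehicle, and the difference was 3.43 ± 0.13 (adjusted p = 1.37e-24). Its paralogue MX2 had 16.4 and 13.3 CPM with Coptidis high and 0.534, 0.847 and 0.805 CPM with Bupleuri high (4.33 ± 0.25), OAS2, an oligoadenylate synthetase, had 37.0 and 30.5 CPM with Coptidis high and 2.94, 3.31 and 2.95 CPM with Bupleuri high (3.46 ± 0.19), and SLFN5, of the interferon-inducible Schlafen family and not on the list, had 324 and 297 CPM with Coptidis high and 19.8, 18.7 and 18.1 CPM with Bupleuri high (4.04 ± 0.09).

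The signal proteins on the list followed the same order. STAT2, which carries the interferon signal to the nucleus, differed by 0.99 ± 0.08, and IRF9, its DNA-binding partner, by 2.49 ± 0.13. IRF9 rose by 1.49 with Coptidis and changed by -0.78 with Bupleuri, both past the threshold. Class I antigen presentation genes were higher with Coptidis in 13 of 15, the others not passing, with a median of 0.86. TAP1, a subunit of the peptide transporter, had 40.0 and 40.4 CPM with Coptidis high and 9.03, 8.84 and 8.82 CPM with Bupleuri high (2.17 ± 0.10, adjusted p = 1.24e-21), HLA-B differed by 1.45 ± 0.17 and the immunoproteasome subunit PSMB8 by 1.23 ± 0.12. Of the same list 13 rose from low to high dose with Coptidis, and 0 rose and 1 fell with Bupleuri (2 and 2 with the compared groups fitted alone).

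The MX1 promoter is shown for the interferon-stimulated response element core, GAAA followed by any 2 bases and GAAA, in capitals, from the window chr21:41420308-41420607, plus strand. MX1 has other RefSeq windows: chr21:41431800-41432099 holds 1 match and chr21:41425989-41426288 holds none.
MX1 promoter: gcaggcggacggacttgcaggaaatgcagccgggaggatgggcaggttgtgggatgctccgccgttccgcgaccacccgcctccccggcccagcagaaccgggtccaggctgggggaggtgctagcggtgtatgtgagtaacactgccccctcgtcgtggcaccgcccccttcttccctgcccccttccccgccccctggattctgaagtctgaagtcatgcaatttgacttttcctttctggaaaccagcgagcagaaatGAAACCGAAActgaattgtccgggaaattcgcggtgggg
This string was found on either strand in 12 of the 17 tested interferon-stimulated genes in the table, beside 4.38% of all genes. Strings were matched independently and may overlap within a window, and a match describes the letters only.

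**Figure D4:**
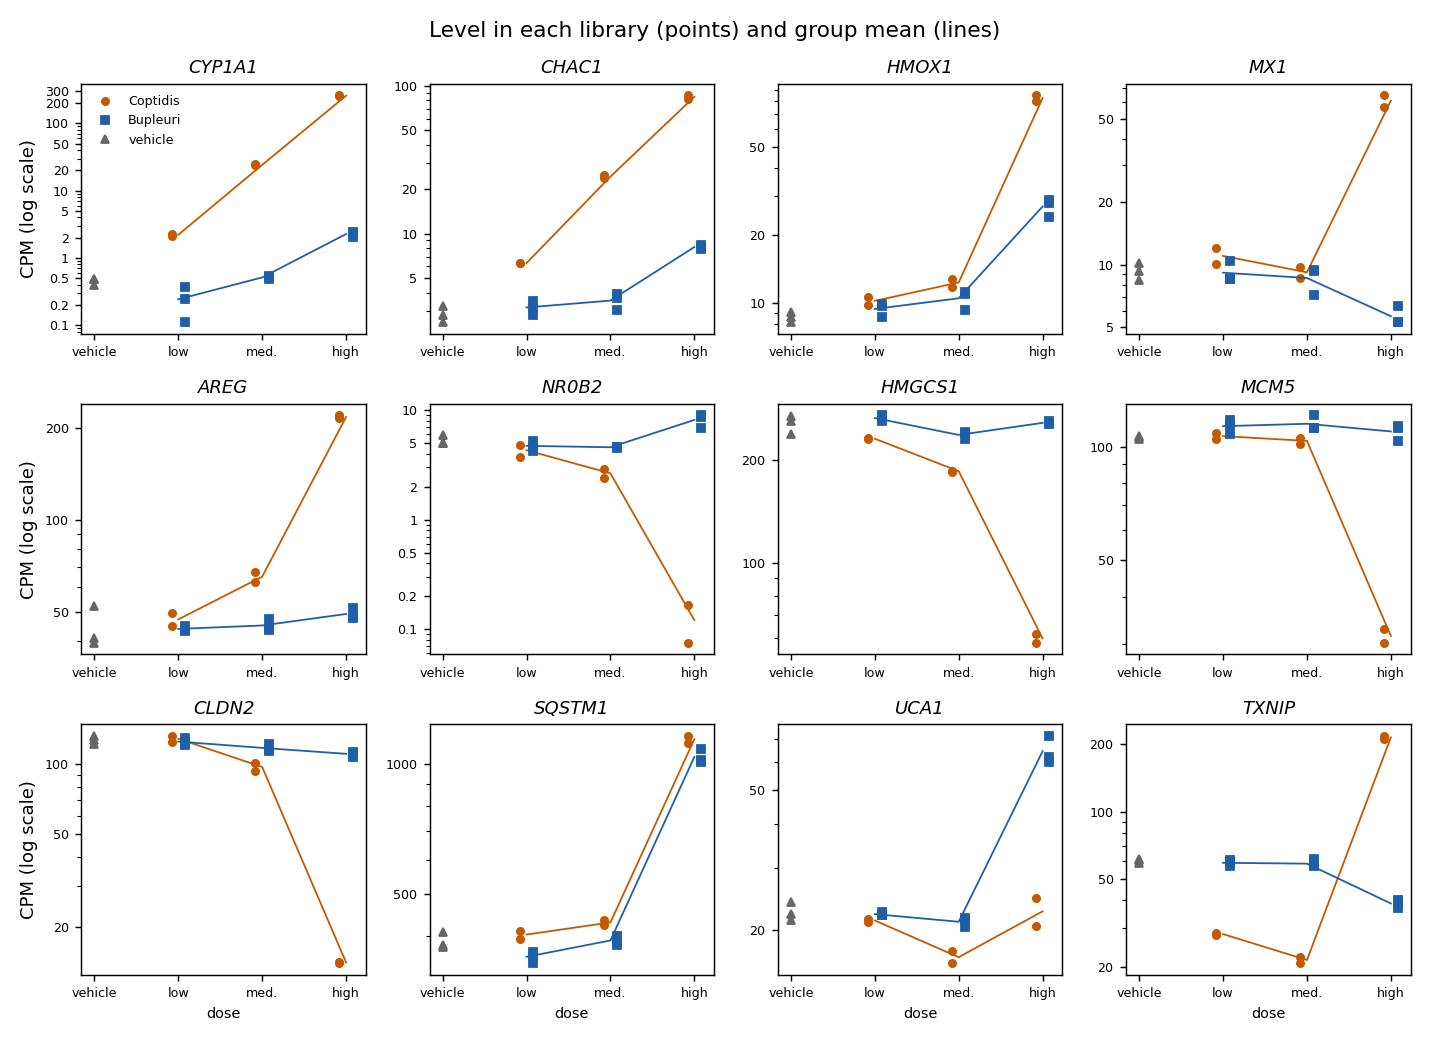
Level of 12 genes in CPM on a log scale (y axis) by dose (x axis), with a point for each library and lines through the group means of Coptidis (orange circles) and Bupleuri (blue squares), vehicle in grey triangles. CYP1A1 and CHAC1 separate at every dose, MX1 and MCM5 at high dose, and SQSTM1 rises by 1.50 and 1.53 on the log2 scale with Coptidis and Bupleuri.

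Genes of inflammation and growth factor signalling were mostly higher with Coptidis high, where 30.1% of all tested genes were higher and 29.4% lower. Of 14 tested NF-kappaB targets and chemokines 9 were higher and 2 lower, led by LCN2, an iron-sequestering secreted protein, with 358 and 355 CPM with Coptidis high and 83.8, 75.9 and 86.3 CPM with Bupleuri high (2.12 ± 0.06, adjusted p = 4.03e-28). RELB, an NF-kappaB subunit, and TNFAIP3, its inhibitor, differed by 1.01 ± 0.13 and 0.84 ± 0.16, while CXCL8, a neutrophil chemokine, was lower (-0.70 ± 0.14). TNFAIP3 rose with both extracts, by 1.66 with Coptidis and 0.80 with Bupleuri. Ligands of the EGF receptor family made up the 5 higher genes of 9 tested in that list, with 0 lower, and the receptors EGFR, ERBB2 and ERBB3 did not pass. AREG had 220.4 and 215 CPM with Coptidis high and 47.6, 48.2 and 51.5 CPM with Bupleuri high (2.15 ± 0.10, adjusted p = 1.18e-21), EREG differed by 1.96 ± 0.07 and BTC by 2.05 ± 0.15.

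Of 18 tested ERK feedback and immediate early genes 11 were higher and 2 lower with Coptidis high, where 30.1% and 29.4% of all tested genes were. The list counts were 11 and 6 without Zizyphi medium replicate 3 or with the compared groups fitted alone. With no filter on low counts they were 11 and 4. EGR1, an immediate early transcription factor, had 84.4 and 83.8 CPM with Coptidis high and 34.7, 33.1 and 32.4 CPM with Bupleuri high (1.33 ± 0.23), and FOSB differed by 1.15 ± 0.18. MYC had 120.5 and 128 CPM with Coptidis high and 287, 263 and 267 CPM with Bupleuri high, a difference of -1.13 ± 0.06 (adjusted p = 3.04e-19), with a change of -0.73 from low to high dose with Coptidis and of 0.22 with Bupleuri. Beside the same shares of all tested genes, 7 of 12 hypoxia-type genes were higher and 2 lower. VEGFA, the angiogenic factor, led them with 492 and 478 CPM with Coptidis high and 104, 95.0 and 98.2 CPM with Bupleuri high (2.29 ± 0.05, adjusted p = 1.32e-31), and NDRG1, a stress-responsive gene of hypoxia, differed by 0.97 ± 0.20. CA9, a carbonic anhydrase induced by hypoxia, was lower instead, at 13.0 and 15.4 CPM with Coptidis high and 39.4, 40.5 and 43.4 CPM with Bupleuri high (-1.54 ± 0.16).

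Cholesterol synthesis and uptake genes were lower with Coptidis high in 24 of 26 tested members. A further 1 was higher, with a median log2 difference of -1.15 at high dose and -0.12 at low dose, where none passed in edgeR. From low to high dose 25 fell with Coptidis (28.4% of all tested genes fell), and with Bupleuri 2 rose and 2 fell, where 6.34% and 6.59% of all tested genes did. The Bupleuri counts were 4 and 2 without Bupleuri low replicate 2, 6 and 3 without Zizyphi medium replicate 3, 6 and 4 with the compared groups fitted alone, 5 and 2 in DESeq2, and 0 and 2 with total counts only. HMGCS1 (ENSG00000112972, chr5:43289395-43313512, minus strand), the cytosolic HMG-CoA synthase, had 58.2 and 61.7 CPM with Coptidis high and 261, 255 and 257 CPM with Bupleuri high, against 239, 260.2 and 271 CPM in vehicle. The Bupleuri libraries lay within or next to the vehicle range and the Coptidis libraries far below it (-2.11 ± 0.10, adjusted p = 1.42e-21, 0.232 times the Bupleuri level). INSIG1, the sterol-sensing anchor of SREBP, had 39.4 and 40.0 CPM with Coptidis high and 174, 169 and 169.5 CPM with Bupleuri high (-2.10 ± 0.06). The exception, TM7SF2, a sterol reductase, was higher at 0.75 ± 0.14, after a change of -0.56 ± 0.13 with Bupleuri. The sterol regulatory element TCACNCCAC was in a window of 1 of the 19 tested members in the table (SREBF2), beside 1.39% of all genes.

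Lipid genes outside the sterol pathway were more often lower than higher with Coptidis high, where 29.4% of all tested genes were lower and 30.1% higher. Of 9 tested fatty acid synthesis genes 6 were lower and 1 higher, among them fatty acid synthase, FASN, with 409.6 and 413 CPM with Coptidis high and 1044, 1047 and 936 CPM with Bupleuri high (-1.29 ± 0.08, adjusted p = 2.19e-17), the carboxylase ACACA (-1.02 ± 0.07) and the elongase ELOVL6 (-0.91 ± 0.06). Of 13 PPAR targets and fat oxidation genes 2 were higher, 6 lower and 5 did not pass, with a median of -0.13. By the rule for a difference beyond the low dose, 1 was higher and 3 lower. FABP1, the liver-type fatty acid-binding protein, had 0.188 and 0.459 CPM with Coptidis high and 4.27, 3.19 and 4.26 CPM with Bupleuri high (-3.60 ± 0.29). FABP1 rose over its low dose with Bupleuri, by 0.79 ± 0.18. ACADM, a medium-chain acyl-CoA dehydrogenase, was higher with Coptidis, at 0.81 ± 0.07.

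**Figure D5:**
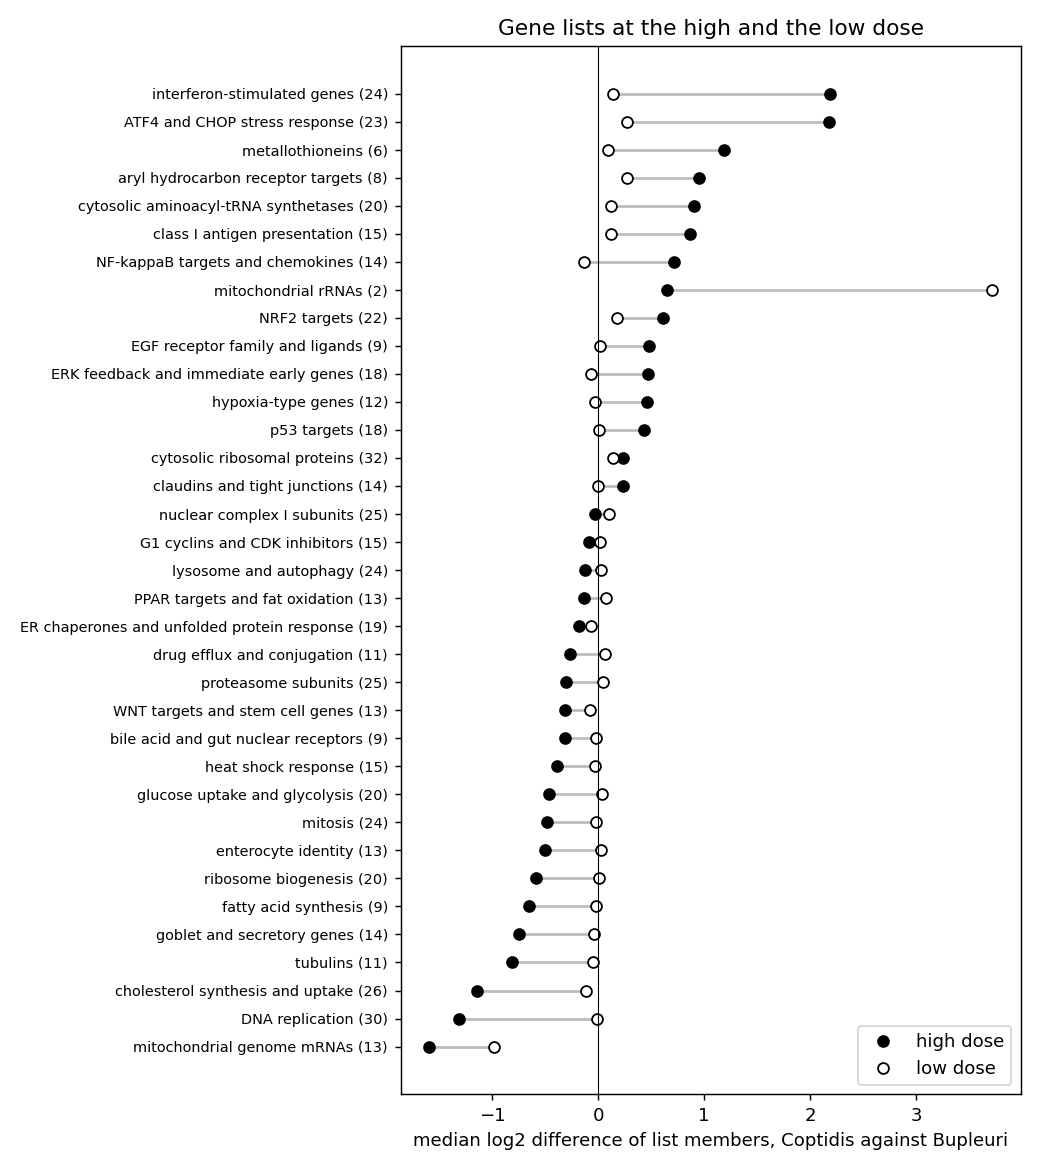
Median log2 difference, Coptidis against Bupleuri (x axis), of the tested members of each gene list (y axis, number of members in brackets) at high dose (filled) and low dose (open). The lists of interferon-stimulated and ATF4 genes reach 2.19 and 2.18 at high dose, DNA replication -1.32, and the mitochondrial rRNAs stand out at low dose with 3.72.

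DNA replication genes were lower with Coptidis in 30 of 30 tested, with a median of -1.32 at high dose and -0.01 at low dose. From low to high dose all 30 fell with Coptidis, and with Bupleuri 1 rose and 1 fell (2 and 4 without Zizyphi medium replicate 3, 2 and 3 with the compared groups fitted alone). MCM5, a subunit of the replicative helicase, had 30.2 and 32.8 CPM with Coptidis high and 104, 114 and 112 CPM with Bupleuri high (-1.80 ± 0.06, adjusted p = 5.9e-26), and its partner MCM4 had 80.5 and 84.4 CPM with Coptidis high and 346, 359.8 and 353 CPM with Bupleuri high (-2.10 ± 0.05). LIG1, the ligase that joins Okazaki fragments, differed by -1.81 ± 0.07, and PCNA, the sliding clamp, by -1.61 ± 0.09. Mitosis genes followed to a smaller extent, with 21 of 24 lower, 0 higher and a median of -0.48, such as MKI67 at -0.98 ± 0.20, BUB1B at -0.84 ± 0.05 and BIRC5 at -0.80 ± 0.11.

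Over the list of G1 cyclins and inhibitors 5 of 15 were higher, 7 lower and 3 did not pass, with a median of -0.09. Of all tested genes 30.1% were higher and 29.4% lower. Cyclin E2, CCNE2, was among the lower members, with 1.84 and 2.33 CPM with Coptidis high and 12.8, 12.6 and 11.4 CPM with Bupleuri high (-2.56 ± 0.14, adjusted p = 1.27e-19), and the transcription factor E2F1 had 17.0 and 17.5 CPM with Coptidis high and 61.5, 63.3 and 67.4 CPM with Bupleuri high (-1.89 ± 0.16). CDKN1A, which encodes the kinase inhibitor p21, had 91.8 and 90.9 CPM with Coptidis high and 25.4, 22.8 and 24.7 CPM with Bupleuri high (1.91 ± 0.07, adjusted p = 1.37e-24) and rose with both extracts, by 2.65 ± 0.09 with Coptidis and 0.81 ± 0.07 with Bupleuri. Among 18 p53 targets, which include CDKN1A and SESN2, 10 were higher and 5 lower, beside the same shares of all tested genes. The apoptosis gene BBC3 was higher at 1.74 ± 0.16, MDM2, a target and inhibitor of p53, did not pass (0.02 ± 0.05, adjusted p = 0.748), and BTG2 was lower at -1.51 ± 0.14.

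Glycolysis genes were mostly lower with Coptidis high, where 29.4% of all tested genes were lower and 30.1% higher. Of 20 glucose uptake and glycolysis genes 17 were lower and 1 higher, with a median of -0.47, and from low to high dose 2 rose and 15 fell with Coptidis while 7 rose and 0 fell with Bupleuri (15 and 0 without Zizyphi medium replicate 3, 15 and 1 with the compared groups fitted alone). With total counts only, 2 rose and 9 fell with Coptidis and 3 rose and 0 fell with Bupleuri. ENO1, enolase, had 919.8 and 924 CPM with Coptidis high and 1880.2, 1920.3 and 1910.1 CPM with Bupleuri high (-1.05 ± 0.15), PFKL, a phosphofructokinase, differed by -1.05 ± 0.13 and PFKFB4, which sets the level of its activator, by -1.24 ± 0.22. SLC2A1, the glucose transporter GLUT1, did not pass (0.01 ± 0.11, adjusted p = 0.967). TXNIP, an inhibitor of glucose uptake that binds thioredoxin, had 212 and 219 CPM with Coptidis high and 36.9, 39.0 and 40.0 CPM with Bupleuri high, against 58.5, 60.5 and 61.2 CPM in vehicle. At low dose TXNIP had been lower with Coptidis, 28.3 and 27.9 against 60.3, 56.9 and 59.4 CPM (-1.06 ± 0.06, adjusted p = 5.21e-16), so its order turned round between low and high dose. ARRDC4, a relative of TXNIP, did the same, at 2.63 ± 0.09 at high and -0.93 ± 0.10 at low dose.

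All 13 mRNAs of the mitochondrial genome were lower with Coptidis high, with a median of -1.60, but the median was -0.98 at low dose already. MT-ND4L had 212 and 197 CPM with Coptidis high and 1112, 1172 and 1258 CPM with Bupleuri high and 379 and 279.8 against 1053, 1218 and 1100.5 CPM at low dose. The 12S ribosomal RNA, MT-RNR1, was higher with Coptidis at both doses, by 1.10 ± 0.20 at high and 4.31 ± 0.22 at low dose. MT-ND5, by contrast, changed its order, with -2.17 ± 0.38 at high dose and 1.60 ± 0.34 at low dose. Of 25 nuclear-encoded subunits of complex I 4 were higher and 6 lower, where 30.1% and 29.4% of all tested genes were, with a median of -0.03. NDUFS4, one of them, differed by 0.57 ± 0.16. Single libraries move these counts, to 3 and 2 without Coptidis high replicate 2, 2 and 4 without Coptidis high replicate 3, 2 and 5 without Bupleuri high replicate 3, and 7 and 8 without Zizyphi medium replicate 3. With total counts only they were 3 and 3, and with the compared groups fitted alone 8 and 8. Nuclear copies of mitochondrial sequence can share reads with these genes.

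Genes of intestinal secretory cells, stem cells and enterocytes were more often lower than higher with Coptidis high, and several secretory genes had fallen with both extracts. In bulk libraries fewer cells of a type and less RNA per cell cannot be told apart. In the goblet and secretory list 1 of 14 tested was higher and 9 were lower, where 30.1% and 29.4% of all tested genes were. From low to high dose 11 fell with Coptidis and 9 with Bupleuri, where 28.4% and 6.59% of all tested genes did. ATOH1, which commits crypt cells to the secretory fate, had 0.263 and 0.334 CPM with Coptidis high and 2.22, 2.18 and 2.34 CPM with Bupleuri high, against 4.45, 4.73 and 4.69 CPM in vehicle (-2.90 ± 0.27, adjusted p = 4.36e-12), with changes of -3.76 ± 0.27 and -0.97 ± 0.15 from low to high dose with Coptidis and Bupleuri. MUC2, the gel-forming mucin of goblet cells, had 6.87 and 6.42 CPM with Coptidis high and 27.8, 23.8 and 21.9 CPM with Bupleuri high (-1.88 ± 0.44). KLF4, a factor of differentiating epithelium, was the member that was higher, with 46.1 and 46.8 CPM with Coptidis high and 11.6, 11.6 and 11.2 CPM with Bupleuri high (2.02 ± 0.08, adjusted p = 7.91e-24).

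Of 13 WNT targets and stem cell genes 6 were lower, 1 higher and 6 did not pass, with a median of -0.32. Over all tested genes 29.4% were lower and 30.1% higher. LGR5, the marker of crypt stem cells, was lower, with 9.34 and 9.21 CPM with Coptidis high. With Bupleuri high it had 35.4, 40.9 and 36.9 CPM (-2.02 ± 0.08, adjusted p = 1.91e-24). The adhesion receptor CD44 (-1.90 ± 0.11) and the ephrin receptor EPHB2 (-1.05 ± 0.22) were lower too. AXIN2, a feedback inhibitor of WNT signalling, was higher, at 0.51 ± 0.04. Of 13 enterocyte genes 7 were lower, 2 higher and 4 did not pass, with a median of -0.51, beside the same shares of all tested genes. GPA33, a surface antigen of intestinal epithelium, had 0.0751 and 0.208 CPM with Coptidis high and 2.49, 2.82 and 2.61 CPM with Bupleuri high (-4.21 ± 0.36), with the Coptidis libraries near the floor of 3 counts, and the homeobox factor CDX2 was higher (1.15 ± 0.13). CLDN2, a claudin that forms cation pores, had 14.2 and 14.0 CPM with Coptidis high and 107, 111 and 113 CPM with Bupleuri high (-2.97 ± 0.08, adjusted p = 4.43e-30), while CLDN7 and the scaffold TJP1 were higher, at 0.81 ± 0.06 and 0.72 ± 0.15. Over the 14 genes of the junction list 7 were higher and 4 lower (7 and 2 with total counts only), where 30.1% and 29.4% of all tested genes were.

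NR0B2 (ENSG00000131910, chr1:26911489-26913966, minus strand), the orphan nuclear receptor SHP that is induced by bile acids, showed the largest negative difference among the genes named by rule. It had 0.0751 and 0.167 CPM with Coptidis high and 8.63, 6.82 and 8.93 CPM with Bupleuri high, against 5.96, 4.97 and 5.02 CPM in vehicle. The Coptidis values lie at 2 to 4 counts a library around the floor, so that the size of the difference, -6.04 ± 0.28 (adjusted p = 1.22e-21), is imprecise, although the values of the extracts lie far apart. NR0B2 fell with Coptidis (-5.12 ± 0.32) and rose with Bupleuri (0.78 ± 0.13) from low to high dose. Of 9 genes of the bile acid and gut nuclear receptor list 1 was higher, 4 were lower and 4 did not pass. Over all tested genes 30.1% were higher and 29.4% lower. NR1H4, the bile acid receptor FXR that induces NR0B2, had 0.0375 and 0.0417 CPM with Coptidis high and 0.578, 0.726 and 0.575 CPM with Bupleuri high, with the Coptidis values below the floor of 3 counts. NR5A2, a nuclear receptor that NR0B2 represses, was higher with Coptidis, at 1.15 ± 0.11, and the vitamin D receptor VDR lower, at -0.35 ± 0.05.

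Further genes of the largest negative differences include a mucin and secreted proteins. CEMIP, which degrades hyaluronan, had 1.24 and 1.21 CPM with Coptidis high and 29.1, 31.4 and 29.8 CPM with Bupleuri high (-4.61 ± 0.13), and MUC17, a membrane mucin, had 1.09 and 0.876 CPM with Coptidis high and 19.2, 17.2 and 15.5 CPM with Bupleuri high (-4.12 ± 0.29), after a rise of 1.45 ± 0.19 with Bupleuri. AGR3, a disulphide isomerase, differed by -3.55 ± 0.30, the dioxygenase-like gene HPDL by -3.49 ± 0.21, the olfactory receptor gene OR51E1 by -3.55 ± 0.24 and the long RNA LHFPL3-AS2 by -3.76 ± 0.26. At low dose none of these 6 passed. LHFPL3-AS2 is an antisense RNA, and whether the counting told strands apart is not stated in the labels.

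Heat shock genes and proteasome subunits were more often lower than higher with Coptidis high, and endoplasmic reticulum genes split within their list. In the endoplasmic reticulum list 7 of 19 genes were higher and 10 lower with Coptidis high, with a median of -0.19. Of all tested genes 30.1% were higher and 29.4% lower. The higher members included the stress sensor ERN1, with 73.4 and 74.5 CPM with Coptidis high and 19.1, 17.7 and 16.0 CPM with Bupleuri high (2.07 ± 0.07, adjusted p = 1.04e-26), HERPUD1 of degradation at the reticulum (1.59 ± 0.06) and the transcription factor XBP1 (1.43 ± 0.08). The lower ones included the chaperones PDIA4 (-1.18 ± 0.06) and CALR (-1.13 ± 0.06). From low to high dose 11 of these genes rose with Bupleuri and 0 fell (7 and 0 without Bupleuri low replicate 1 or with no filter on low counts, 4 and 0 with total counts only), while 10 rose and 8 fell with Coptidis. In the cytosolic heat shock list 1 of 15 was higher and 10 lower, with the co-chaperone CHORDC1 at -1.76 ± 0.08 and HSPA8 at -1.29 ± 0.09, and 7 had risen with Bupleuri. That count was 4 without Bupleuri high replicate 1, with upper quartile scaling or with total counts only, 11 without Zizyphi medium replicate 3 and 12 with the compared groups fitted alone. Proteasome subunits were lower in 18 of 25 and higher in 0 (7 and 0 with total counts only), such as PSMD14 (-1.15 ± 0.11) and PSMD1 (-1.01 ± 0.05).

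Lysosome and autophagy genes split within their list, with 9 of 24 higher and 11 lower, where 30.1% and 29.4% of all tested genes were. Without Coptidis high replicate 3 these counts were 5 and 10, and with total counts only 4 and 6. MAP1LC3B, which coats autophagosomes, had 311 and 309.6 CPM with Coptidis high and 62.5, 57.8 and 61.4 CPM with Bupleuri high (2.36 ± 0.05, adjusted p = 4.46e-32), and its relative GABARAPL1 and the protease CTSL were higher too, at 1.86 ± 0.08 and 1.42 ± 0.12. Lower members included the hydrolase GLA (-1.19 ± 0.14) and the lysosomal membrane proteins NPC1 (-0.72 ± 0.07) and MCOLN1 (-0.64 ± 0.13). With Bupleuri 14 of the 24 rose from low to high dose and 0 fell, and with Coptidis 10 rose and 6 fell (5 and 0, and 9 and 2, with total counts only).

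Ribosome biogenesis genes were lower with Coptidis high in 16 of 20 and higher in 0, with a median of -0.59, such as UTP20, of small-subunit processing (-1.40 ± 0.08), and the nucleolar protein NCL (-1.08 ± 0.16). Cytosolic ribosomal protein genes were higher in 16 of 32 and lower in 1, where 30.1% and 29.4% of all tested genes were. Their median was 0.24 at high and 0.14 at low dose. The higher members numbered 9 without Coptidis high replicate 2, 5 without Coptidis high replicate 3, 9 without Bupleuri high replicate 1, 8 without Bupleuri high replicate 2 and 9 with total counts only. Tubulins were lower in 10 of 11, led by TUBB with 521 and 552 CPM with Coptidis high and 1489.9, 1399 and 1491 CPM with Bupleuri high (-1.45 ± 0.04, adjusted p = 1.41e-27). Metallothioneins, which bind zinc and copper, and the zinc exporter SLC30A1 were higher in 6 of 6, with MT2A at 46.1 and 46.8 CPM with Coptidis high and 20.1, 20.4 and 20.9 CPM with Bupleuri high (1.18 ± 0.10). The metallothionein genes are close copies of each other and may share reads.

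Some genes changed in opposite directions with the dose. Among 423 such genes that met the rule for naming, the largest difference of dose changes was that of ABCG1, a cholesterol exporter and target of the liver X receptor. ABCG1 had 57.1 and 56.2 CPM with Coptidis high and 1.60, 1.69 and 1.27 CPM with Bupleuri high, against 4.89, 5.35 and 4.00 CPM in vehicle, with Coptidis libraries above and Bupleuri libraries below vehicle. Its changes from low to high dose were 3.36 ± 0.17 with Coptidis and -1.33 ± 0.20 with Bupleuri, a difference of 4.69 ± 0.26 (adjusted p = 9.81e-19).

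Other genes passed in the same direction with both extracts without passing in the difference of dose changes, 454 in all by the rule for naming. SQSTM1, the autophagy receptor p62, had 1118 and 1160.1 CPM with Coptidis high and 1083, 1008 and 1020.1 CPM with Bupleuri high, with 412 and 395 against 368, 346 and 361 CPM at low dose. It rose by 1.50 ± 0.06 with Coptidis and 1.53 ± 0.05 with Bupleuri, and the difference of these rises was -0.04 ± 0.08 (adjusted p = 0.754). The iron store FTH1 rose by 1.29 ± 0.19 and 0.91 ± 0.15, the lipid droplet protein PLIN2 by 0.81 ± 0.11 and 1.09 ± 0.09, and the chloride channel BEST1 by 1.29 ± 0.15 and 1.02 ± 0.13, with Coptidis and Bupleuri in that order. FTH1P10, a pseudogene of FTH1, also met the rule and may share its reads. Among falls, the kinase SPEG changed by -1.47 ± 0.17 and -1.49 ± 0.14, and the sialyltransferase ST6GALNAC1 by -1.61 ± 0.21 and -1.21 ± 0.17. C2orf72, POU2AF1 and SSTR1 fell with both, by between 1.15 and 1.56 on the log2 scale. With the compared groups fitted alone the difference passed for FTH1, PLIN2 and BEST1, and a difference that misses the threshold does not show that the changes were equal.

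Of the genes that rose with the dose of Bupleuri, 229 did not pass with Coptidis, and 144 of these passed in the difference. Of those that fell, 240 did not pass with Coptidis, 115 of them past the difference. UCA1 (ENSG00000214049, chr19:15828206-15836326, plus strand), a long non-coding RNA, had 20.5 and 24.7 CPM with Coptidis high and 71.4, 59.99 and 62.3 CPM with Bupleuri high, against 22.2, 21.3 and 24.1 CPM in vehicle. The Coptidis values overlap those of vehicle and the Bupleuri values lie above both, and the difference between the extracts was -1.51 ± 0.20 (adjusted p = 1.65e-08). The amino acid transporter SLC38A4 had 3.04 and 2.59 CPM with Coptidis high and 8.68, 8.67 and 7.32 CPM with Bupleuri high (-1.54 ± 0.18), the arginine deiminase PADI1 differed by -0.97 ± 0.08 and the p53-linked PHLDA3 by -0.87 ± 0.14. ENO2, the neuronal enolase, rose by 0.71 ± 0.08 with Bupleuri but did not pass between the extracts at high dose (-0.16 ± 0.09, adjusted p = 0.124). In the other direction DEPTOR, an inhibitor of mTOR, had 7.06 and 6.55 CPM with Coptidis high and 3.74, 3.55 and 3.45 CPM with Bupleuri high (0.93 ± 0.12) after a change of -0.85 ± 0.11 with Bupleuri. RNASE4, LRRC75B, LINC02562 and SIDT1 behaved likewise, higher with Coptidis high by between 0.69 and 1.06 on the log2 scale. ENO2 passed from low to high dose with Coptidis too without replicate 3 of Zizyphi medium (log2 change 0.22). Without Coptidis high replicate 2 LINC02562 no longer passed in the difference of dose changes (0.83, adjusted p = 0.0607), and RNASE4 did not without Coptidis high replicate 3 (0.58, adjusted p = 0.111), Coptidis low replicate 3 (0.61) or Bupleuri high replicate 1 (0.64).

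The 34 genes that separated the extracts at low dose held members of the programs above. They included CYP1A1 and CYP1B1, 7 genes of the ATF4 and CHOP list, 3 of the tRNA synthetase list, AKR1C2, AKR1B10 and ALDH3A1, all higher with Coptidis, and TXNIP and ARRDC4, lower with Coptidis. Of the mitochondrial genome they included both ribosomal RNAs, 2 mRNAs that were higher with Coptidis low and 2 that were lower. At medium dose CYP1A1 stood at 24.6 and 23.7 CPM with Coptidis and 0.480, 0.541 and 0.520 CPM with Bupleuri (5.54 ± 0.20, adjusted p = 8.95e-24), and CHAC1 at 24.7 and 23.9 CPM with Coptidis and 3.65, 3.89 and 3.05 CPM with Bupleuri (2.80 ± 0.16, adjusted p = 2.17e-17). MX1, at 8.65 and 9.72 CPM with Coptidis and 9.41, 9.30 and 7.17 CPM with Bupleuri, overlapped at that dose and did not pass (0.10 ± 0.14, adjusted p = 0.771). MCM5, at 105 and 102 CPM with Coptidis and 112, 121 and 112 CPM with Bupleuri, did not pass either (-0.15 ± 0.06, adjusted p = 0.101).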

How the data were processed

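RNA-seq of HT29 cells was analysed for 60 libraries in 25 groups, taken from a table of 270 sample columns, of which 210 belong to samples not analysed here. The deposited values are RSEM expected counts per gene, which the authors computed with RSEM 1.3.3 after STAR 2.7.3a and Trim Galore 0.6.5 on GRCh38, per the submitters' processing notes, which do not name an annotation. RSEM divides reads that match several genes, so near-identical copies share counts and are named as uncertain. Expected counts were rounded to whole numbers. Genes with at least 0.5 CPM in 3 libraries (16022 of 60675) were fitted in edgeR 4.0.16 (R 4.3.3) by the quasi-likelihood F test with TMM scaling. All groups shared 1 fit with 35 residual degrees of freedom, and p-values were adjusted by Benjamini-Hochberg over all tested genes at a threshold of 0.05. CPM are scaled by the TMM factors. The error of a log2 difference is the value divided by the square root of F. The fit was run on simulated counts for the 16022 genes, in which few genes changed and only with Coptidis high. Such counts cannot test the scaling where most genes differ, as they did here. Coordinates come from GENCODE 29, promoters from RefSeq.

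Named genes average at least 1 in log2 CPM. The 10 largest differences each way carry the call beyond the low dose. The up to 3 genes a list had the largest differences among members that passed at high dose, with or without that call. The others had the largest opposite, shared or Bupleuri-only dose changes (5 each way). Some genes that met the rule are not reported here. Other list members were named after their values were seen, and the comparison, the 35 lists and the naming rule were chosen with earlier results of these data known. DESeq2 1.42.0, other scalings and filters, left-out libraries and a replicate block were tried as alternatives.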

Additional observations from a re-analysis of the deposited data

Results flagged for a closer look

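Listed here are the genes with the largest opposite dose changes. Their difference is Coptidis high minus low against Bupleuri high minus low, from the edgeR quasi-likelihood F test. These are the extremes of 423 opposite changes chosen by that same difference, so their sizes are descriptions and passing adds no support. All 222 genes that rose with Coptidis and fell with Bupleuri, and all 233 of the reverse, passed in this difference.

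With a rise in Coptidis and a fall in Bupleuri, ABCG1 differed by 4.69 ± 0.26 on the log2 scale (SE), from 3.36 with Coptidis and -1.33 with Bupleuri. MX2 differed by 4.52 ± 0.37, from 3.15 and -1.36, and SLFN5 by 3.94 ± 0.13, from 3.42 and -0.51. ARRDC4 differed by 3.56 ± 0.13, from 3.23 and -0.34, and TXNIP by 3.54 ± 0.09, from 2.94 and -0.61.

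With a fall in Coptidis and a rise in Bupleuri, NR0B2 differed by -5.90 ± 0.35, from -5.12 with Coptidis and 0.78 with Bupleuri. CEMIP differed by -4.47 ± 0.16, from -4.22 and 0.25, MUC17 by -3.72 ± 0.39, from -2.26 and 1.45, and FABP1 by -3.59 ± 0.38, from -2.80 and 0.79. Single libraries decide some of the Bupleuri calls: ARRDC4 no longer passed without Bupleuri high replicate 1 (-0.28, adjusted p = 0.0514), and CEMIP did not without Bupleuri high replicate 2 (0.23, adjusted p = 0.0903) or Bupleuri low replicate 2 (0.23, adjusted p = 0.0927). Scaling and filter decide these Bupleuri calls too. With total counts only CEMIP changed by 0.20 (adjusted p = 0.437) and ARRDC4 by -0.39 (adjusted p = 0.0633). With no filter on low counts the changes were 0.26 (adjusted p = 0.0566) and -0.33 (adjusted p = 0.0593). The Coptidis high values of NR0B2 lie around the floor of 3 counts. Technical and biological explanations of these differences were not tested.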

How the results depend on the processing

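The count at high dose (9529) stayed within 1.5 times under all alternatives, from 8068 to 10747, as did the difference of dose changes, Coptidis high against low and the count beyond the low dose. The counts at lower doses and of Bupleuri high against low did not. Without replicate 3 of Zizyphi medium, genes past the threshold numbered 156 at low dose, 2841 at medium dose and 3631 for Bupleuri high against low. With the compared groups fitted alone they numbered 273, 3139 and 3636. With total counts only they numbered 238 at low dose and 648 at medium dose, and without a filter 154 at low dose. Leaving out single libraries gave 15 to 26 at low dose. The causes were not tested. DESeq2 called 9329 genes at high dose and 49 at low dose.

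With total counts only, 4.62% of low-dose calls were higher with Coptidis, in place of 76.5%, and 65% of those beyond the low dose, in place of 49.6%. Upper quartile scaling gave 37.9% rises for Bupleuri high against low, in place of 49%. Total-count scaling moved the median of all genes by 0.18 in the difference of dose changes, by -0.13 at low dose and by 0.13 for Coptidis high against low, as log2 values.

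The numbers shared by Coptidis and Bupleuri high libraries, 2 and 3, did not pair them (r of deviations from group means -0.0353 and 0.0215), and the fit with a replicate block called 9528 genes. Without mitochondrial genome genes 9552 passed at high dose and 24 at low dose. Over all alternatives no log2 value of a gene named by the rule that had passed changed its sign. For Coptidis high against Bupleuri high 20 such values, of 6 genes, no longer passed, those of SQSTM1, RPS12, RPS18, C2orf72 and LINC02562 among them. More were lost for Bupleuri high against low, with 66 values of 20 genes. In the difference of dose changes 12 values of 9 genes no longer passed, and for Coptidis high against low 6 values of 3 genes. Depth limits genes near the floor of 3 counts, such as NR0B2 and GPA33.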
